A study of Homo sapiens with 12 samples.

Results

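The genes described here are 10 genes of class I antigen presentation, B2M, TAP1, TAP2, TAPBP, PSMB8, PSMB9, NLRC5, ERAP1, HLA-E and HLA-F, of 19775 genes that the arrays name by a unique symbol. They were chosen by name for their role in loading peptides onto class I molecules, with earlier results of these data known. Of the 54675 probe sets on the array, 25 belong to them. A probe set, a group of short probes that reads 1 transcript or a few, was tested where its log2 value reached 4 on at least 3 of the 12 arrays, and 20 of the 25 met this. The other 5, all at 1.93 to 2.96 and so below 4 on all 12 arrays, were the only probe set of NLRC5 (226474_at), 214034_at and 209701_at of ERAP1, 221978_at of HLA-F and 208428_at of TAP2.

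Almost all nucleated cells show peptides from their own proteins to T cells on class I molecules, which consist of a heavy chain and the light chain beta-2-microglobulin. The proteasome cuts the peptides, the TAP1-TAP2 transporter carries them into the endoplasmic reticulum, ERAP1 trims them there, and tapasin holds empty class I molecules at the transporter until a peptide fits. Interferons raise many of these genes together, through transcription factors such as IRF1 and the class I activator NLRC5, while glucocorticoids act through a receptor that itself binds DNA.

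The cells were CCRF-CEM-C7H2, a line derived from a T cell acute lymphoblastic leukemia that glucocorticoids kill in culture, so every group stands for 1 leukemia line, with no other cells around it. The treated groups had 100 nM of the synthetic glucocorticoid dexamethasone for 6 h or for 24 h, and the control groups had its carrier, 0.1% ethanol, for the same times. RNA of 3 independent experiments per group was read on Affymetrix HG-U133 Plus 2.0 arrays (numbered 0, 1 and 3 for 6 h but 1, 2 and 3 for 24 h). The study itself asked which microRNA precursors respond to glucocorticoids, and the class I genes were not its subject.

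The arrays were alike in signal, with 22560 to 22999 probe sets at a log2 of 4 or more and medians of 3.01 to 3.12. T cell markers were read as the label says, with 7 of 9 tested, though CD2 and CD28 lay below 4 on all arrays. All 5 myeloid markers lay below 4 on all arrays, as did PAX5 and MS4A1 among the B cell markers and NCAM1 and GNLY among the natural killer cell markers. The B cell markers CD79A and CD79B and the natural killer cell marker NKG7 were read. With ethanol the summed B cell markers stood at 10.02 to 10.56 at 6 h and 10.22 to 10.41 at 24 h. The summed natural killer cell markers stood at 7.58 to 8.04 and 7.48 to 7.73. Array codes in the labels form 3 batches, a batch for the treated arrays of 6 h, another for their controls and the third for all 6 arrays of 24 h, so that batch and treatment cannot be told apart at 6 h, and any difference that uses the 6 h arrays crosses batches. The poly-A spike controls, added to the RNA before labelling, were higher with dexamethasone by 0.47 at 6 h and by 0.34 at 24 h, and the hybridization controls, added after labelling, by 0.34 and 0.38. Values rescaled to the poly-A spikes are called the spike scale. On it all 20 tested probe sets of the 10 genes had a difference below 0 at 6 h, from -0.99 to -0.086, so every positive difference given for a member at 6 h changes sign there. At 24 h the spike values are given where they end a call or turn a direction.

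Of the 10 genes 7 lie on chromosome 6, in or near the major histocompatibility complex. The 4 genes TAP2, PSMB8, TAP1 and PSMB9 follow each other within 38021 bases of it (GRCh38.p14). TAP2 lies at chr6:32821831-32838739, PSMB8 at chr6:32840717-32844679, TAP1 at chr6:32845209-32853704 and PSMB9 at chr6:32854192-32859851. TAP1 is read from the minus strand and PSMB9 from the plus strand, so that they start back to back with 487 bases between them. HLA-F lies at chr6:29723434-29738532, HLA-E at chr6:30489509-30494194 and TAPBP at chr6:33299694-33314078. B2M is on chromosome 15 (chr15:44711517-44718145), NLRC5 on chromosome 16 (chr16:56989557-57083520) and ERAP1 on chromosome 5 (chr5:96760813-96935854).

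The 250 bases before the start of a gene were read from RefSeq promoter sequences of GRCh38.p14, which held 8 of the 10 genes, HLA-E and NLRC5 not among them, and 7 of these with a window at the gene's own start. Below are the windows of those that changed at 24 h, with that of PSMB9 for its place beside TAP1, each 5′ to 3′ on the strand of its gene. Capitals mark matches on either strand to the core of the interferon-stimulated response element (GAAA, any 2 bases, GAAA) and to a kappa B site (GGGA, any base, TTTCC).
TAP1 (chr6:32853705-32853954, minus strand): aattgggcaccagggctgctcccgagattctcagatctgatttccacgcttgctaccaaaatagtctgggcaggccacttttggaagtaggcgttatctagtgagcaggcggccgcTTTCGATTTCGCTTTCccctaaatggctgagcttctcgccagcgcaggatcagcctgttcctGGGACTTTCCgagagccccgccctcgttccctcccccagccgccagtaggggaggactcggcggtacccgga
PSMB9 (chr6:32853942-32854191, plus strand): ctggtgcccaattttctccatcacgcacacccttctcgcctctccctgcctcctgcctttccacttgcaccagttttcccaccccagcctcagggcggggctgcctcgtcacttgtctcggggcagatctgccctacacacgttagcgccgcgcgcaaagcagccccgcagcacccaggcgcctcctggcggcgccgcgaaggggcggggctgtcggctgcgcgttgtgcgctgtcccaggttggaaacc
TAP2 (chr6:32838740-32838989, minus strand): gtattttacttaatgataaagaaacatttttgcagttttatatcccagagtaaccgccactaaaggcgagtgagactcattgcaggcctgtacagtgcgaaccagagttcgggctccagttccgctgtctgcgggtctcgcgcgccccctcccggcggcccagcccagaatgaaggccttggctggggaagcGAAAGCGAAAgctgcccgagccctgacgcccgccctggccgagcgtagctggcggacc
HLA-F (chr6:29723184-29723433, plus strand): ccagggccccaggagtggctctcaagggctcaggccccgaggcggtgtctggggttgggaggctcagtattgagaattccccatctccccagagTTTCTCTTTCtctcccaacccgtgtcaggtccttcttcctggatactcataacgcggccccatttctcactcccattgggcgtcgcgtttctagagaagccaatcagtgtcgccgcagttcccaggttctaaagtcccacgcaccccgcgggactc
B2M (chr15:44711267-44711516, plus strand): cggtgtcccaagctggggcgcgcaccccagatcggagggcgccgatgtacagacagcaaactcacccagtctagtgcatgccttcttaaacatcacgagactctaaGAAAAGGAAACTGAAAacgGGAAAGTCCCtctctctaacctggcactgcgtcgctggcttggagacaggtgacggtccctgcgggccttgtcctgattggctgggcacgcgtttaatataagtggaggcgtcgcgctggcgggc
TAPBP (chr6:33314079-33314328, minus strand): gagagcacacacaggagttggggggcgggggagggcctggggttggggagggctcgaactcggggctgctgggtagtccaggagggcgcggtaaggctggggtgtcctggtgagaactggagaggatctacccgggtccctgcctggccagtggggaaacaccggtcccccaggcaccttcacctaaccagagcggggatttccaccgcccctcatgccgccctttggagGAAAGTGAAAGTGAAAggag

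The interferon core was found in 5 of the 7 windows, those of TAP1, TAP2, HLA-F, B2M and TAPBP, and in 3.02% of the 34943 RefSeq promoter windows of the same length. In TAP1, B2M and TAPBP overlapping copies were found, which begin 134 and 128, 144 and 138, and 20 and 14 bases before the start. In TAP2 it begins 58 bases and in HLA-F 156 bases before the start. The kappa B letters were found in the TAP1 and B2M windows and in 0.527% of all windows. No palindromic glucocorticoid response element (0.326% of all windows) and no gamma interferon activation site of the form TTC, any 3 bases, GAA (6.56%) was found in the 7 windows. The latter was found before other RefSeq starts of TAP1 and PSMB8, beginning 189 and 65 bases before them. Matches are letters only, and binding was not measured.

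After 24 h with dexamethasone, class I presentation genes moved in both directions. HLA-E, HLA-F, B2M, TAP1 and TAPBP rose, TAP2 fell, and PSMB8, PSMB9 and ERAP1 did not pass the test, so that of 9 tested genes 5 rose and 1 fell, at 1 probe set per gene. Of all 9947 genes tested in this way 23.9% rose and 28.1% fell. Over probe sets 9 of 20 rose and 2 fell, where 22.8% and 24.5% of all 23265 tested probe sets did so. At 6 h 1 of the 20 probe sets, of TAP2, fell and 0 rose, beside 3.54% and 2.66% of all (limma, Benjamini-Hochberg adjusted p under 0.05, here and below). Differences are those of log2 values, treated minus control, ± standard error. Without adjustment 4 of the 20 had a p under 0.05 at 6 h and 13 at 24 h. The share of all probe sets at that threshold was not counted, so these counts are no result about the members. The median difference of the 9 genes was 0.07 at 6 h and 0.29 at 24 h, and that of all genes -0.0023 and -0.022.

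**Figure D1:**
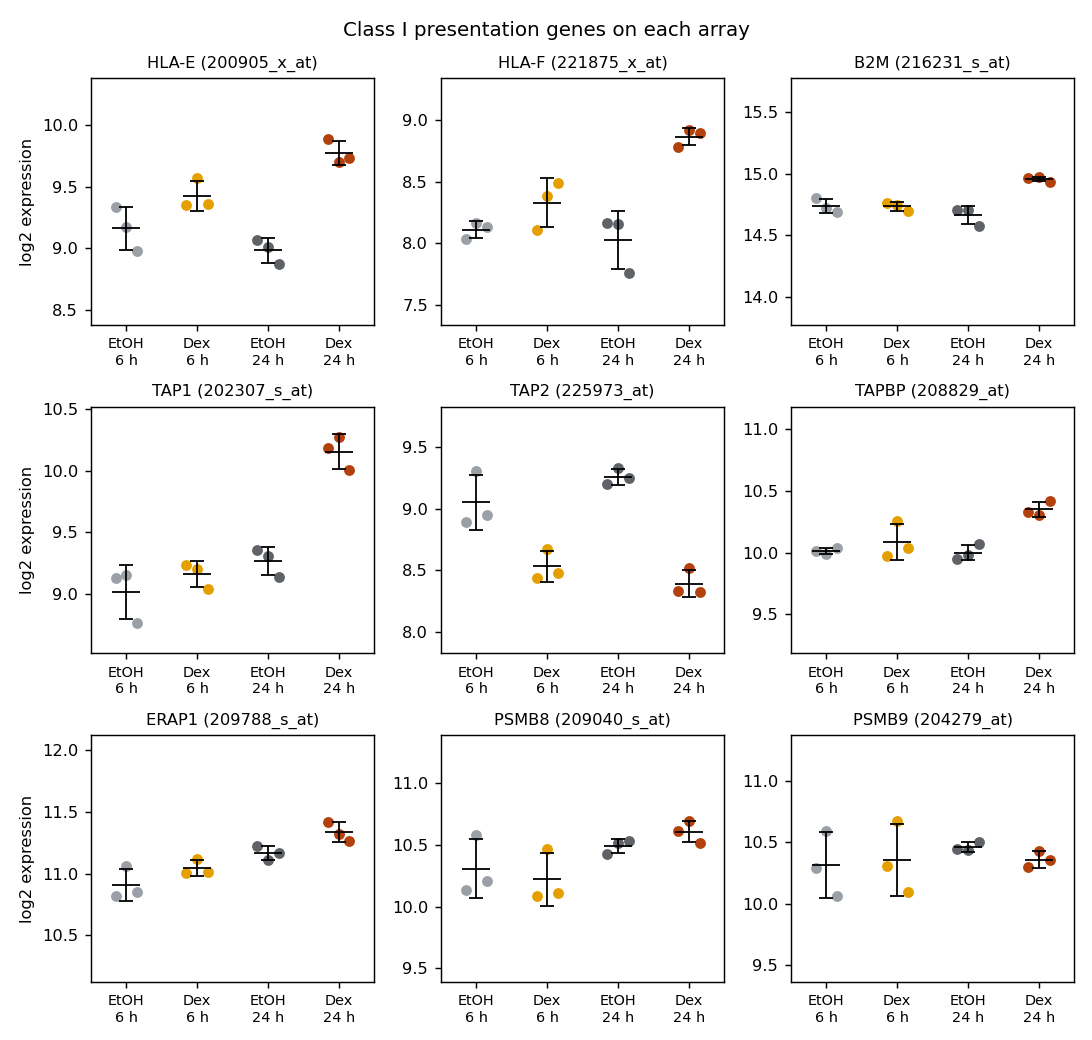
Log2 expression of 9 class I presentation genes (1 probe set each, named in the panel title) on each of the 12 arrays, by treatment and time. Points are arrays, with experiments in number order from left to right, and bars are the mean and SD of 3 arrays. Each panel spans 2 log2 units, but at different levels, which do not compare between genes. HLA-E, HLA-F, B2M, TAP1 and TAPBP stand highest on the dexamethasone arrays of 24 h, and TAP2 is lower with dexamethasone at both times.

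HLA-E and HLA-F are nonclassical heavy chains, and HLA-E is the ligand of the CD94 receptors of natural killer cells. HLA-E was read at 7.27, 7.23 and 6.86 on the ethanol arrays of 6 h (experiments 0, 1 and 3) and at 7.26, 7.53 and 7.72 with dexamethasone, by the probe set 200904_at. At 24 h it was read at 6.48, 7.03 and 6.98 with ethanol (experiments 1, 2 and 3) and at 8.06, 7.90 and 7.81 with dexamethasone. All 3 treated arrays of 24 h lay above all other arrays, while at 6 h the groups overlapped. The rise at 24 h was 1.09 ± 0.17 (adjusted p = 0.000369), or 2.13-fold. It was the largest rise among the 20 probe sets and the only one past 2-fold. At 6 h the difference was 0.38 ± 0.17 (adjusted p = 0.243).

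The other probe sets of HLA-E moved with it. These are x_at sets, whose probes can also bind related transcripts such as those of other heavy chains, whereas 200904_at is not of that kind. The set 200905_x_at was read at 9.07, 9.01 and 8.87 with ethanol and at 9.88, 9.70 and 9.73 with dexamethasone at 24 h. Its rise was 0.79 ± 0.11 (adjusted p = 0.000132), and that of 217456_x_at was 0.82 ± 0.12 (adjusted p = 0.000187). At 6 h both sets had all 3 dexamethasone arrays above all 3 ethanol arrays (9.35, 9.57 and 9.35 against 9.33, 9.17 and 8.98 in 200905_x_at), but the differences of 0.26 ± 0.11 and 0.30 ± 0.12 did not pass (adjusted p = 0.196 and 0.182).

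HLA-F, a heavy chain known mostly in its peptide-free form, was read by x_at sets alone, so a share of its signal from other class I transcripts cannot be told apart. The set 221875_x_at lay at 8.17, 8.16 and 7.76 with ethanol at 24 h and at 8.78, 8.92 and 8.89 with dexamethasone. The groups did not overlap, and the low ethanol array was that of experiment 3. The rise was 0.84 ± 0.13 (adjusted p = 0.000281). The set 204806_x_at had the same low array (8.17, 8.25 and 7.66 against 8.80, 8.75 and 8.60) and rose by 0.69 ± 0.14 (adjusted p = 0.00207), a call that ended on the spike scale (0.35, adjusted p = 0.151). At 6 h their differences were 0.22 ± 0.13 and 0.24 ± 0.14 (adjusted p = 0.374 and 0.392).

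B2M encodes the light chain that pairs with class I heavy chains. Its probe set 216231_s_at lay at 14.71, 14.71 and 14.58 with ethanol at 24 h and at 14.97, 14.97 and 14.94 with dexamethasone. The treated arrays stood above all others by a small step, near the top of the array's range (highest value on any array 15.9 to 16.2). The rise was 0.29 ± 0.07 (adjusted p = 0.00388), or 1.23-fold. Scaled to the spikes the difference was -0.044 (adjusted p = 0.822), so its direction depends on the scale. The set 201891_s_at had its treated arrays above its ethanol arrays too, with a difference of 0.19 ± 0.08 that did not pass (adjusted p = 0.0892) but did when blocked by experiment (0.0481). On the spike scale it was -0.15 (adjusted p = 0.474).

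The set 232311_at of B2M was read far lower, at 4.40, 4.48 and 4.75 against 5.24, 5.19 and 4.37 at 24 h, and its groups overlapped. Its difference of 0.39 ± 0.22 did not pass (adjusted p = 0.183). Without the dexamethasone array of experiment 3 it was 0.67 (adjusted p = 0.0105), and without that of experiment 1 it was 0.23 (0.477). At 6 h B2M differed by -0.0022 ± 0.07 in 216231_s_at and by 0.05 ± 0.08 in 201891_s_at, with adjusted p of 0.991 and 0.821.

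TAP1 and TAP2 form the peptide transporter as a pair of unlike chains, and at 24 h they went opposite ways. TAP1 has 1 probe set (202307_s_at), which was read at 9.36, 9.30 and 9.14 with ethanol and at 10.19, 10.28 and 10.003 with dexamethasone. All 3 treated arrays lay above all other arrays, and the rise was 0.89 ± 0.12 (adjusted p = 0.000133), or 1.85-fold. It held on the spike scale (0.55, adjusted p = 0.0137). At 6 h TAP1 was read at 9.13, 9.16 and 8.76 against 9.24, 9.21 and 9.04. These groups overlapped and the difference of 0.14 ± 0.12 did not pass (adjusted p = 0.562).

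TAP2 was lower with dexamethasone at both times by its brightest probe set, 225973_at. At 24 h it was read at 9.20, 9.33 and 9.25 with ethanol and at 8.33, 8.52 and 8.33 with dexamethasone, a fall of 0.87 ± 0.12 (adjusted p = 0.000114), or 1.82-fold. At 6 h it was read at 8.90, 9.31 and 8.95 against 8.44, 8.67 and 8.48. The groups did not overlap at either time, and experiment 1 was the highest of its group in both groups of 6 h. The fall at 6 h was 0.52 ± 0.12 (adjusted p = 0.0251), or 1.43-fold, and was the only call at 6 h among the 20 probe sets.

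The call at 6 h depended on single arrays and on the setting. It was lost without the ethanol array of experiment 1 (adjusted p = 0.0595), without the dexamethasone array of experiment 0 (0.0666) or of experiment 3 (0.0796), with no filter on low values (0.0512) and in a limma fit of the 6 h arrays alone (0.13). Blocked by experiment it was 0.00525. The direction held in all of these. Of all probe sets, 13.7% lay without overlap below ethanol at 6 h and 9.78% above it, beside 1 and 3 of the 20.

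The other tested probe sets of TAP2 were dim. The set 204770_at was read at 5.41, 5.59 and 5.34 with ethanol at 24 h and at 3.53, 4.55 and 4.63 with dexamethasone, where experiment 1 fell below 4. It fell by 1.21 ± 0.26 (adjusted p = 0.00273), or 2.31-fold, and by 0.85 without that array. The set 204769_s_at had no overlap at 24 h (5.33, 5.38 and 5.56 against 4.84, 5.19 and 4.81), and its difference of -0.48 ± 0.24 did not pass (adjusted p = 0.132). It passed on the spike scale (-0.82, 0.003), when blocked by experiment (0.00734) and in a limma fit of the 24 h arrays alone (0.0191). At 6 h the same set differed by 0.21 ± 0.24 and 204770_at by -0.38 ± 0.26, and neither passed (adjusted p = 0.702 and 0.453).

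The balance of the transporter's chains was read within each array as log2 TAP1 minus log2 TAP2, which any scaling of an array leaves as it is. Its level has no meaning, since the probes of the genes differ, but its change between groups has. With ethanol the mean was -0.034 ± 0.23 (SD, n = 3) at 6 h, and with dexamethasone 0.63 ± 0.15. At 24 h it was 0.0077 ± 0.14 and 1.76 ± 0.09. The shift toward TAP1 by this TAP2 set was thus 0.66 at 6 h and 1.76 at 24 h, and the groups did not overlap at either time (exact two-sided permutation test, p = 0.1 each, the smallest that 3 against 3 arrays can give). At 6 h batch and treatment cannot be told apart. The TAP2 sets also differed there, with 0.21 in 204769_s_at and -0.38 in 204770_at beside 0.14 for TAP1, so not every set gives the shift at 6 h. At 24 h these sets differed by -0.48 and -1.21.

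**Figure D2:**
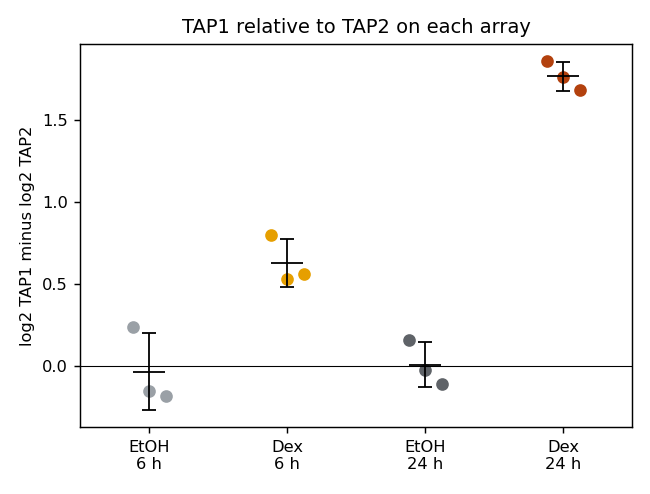
Log2 TAP1 minus log2 TAP2 within each array (202307_s_at and 225973_at), by treatment and time. Points are arrays, with experiments in number order, and bars are the mean and SD of 3 arrays. The dexamethasone arrays lie above the ethanol arrays at both times, with group means of 0.63 at 6 h and 1.76 at 24 h, and the level itself has no meaning.

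Tapasin, the product of TAPBP, ties empty class I molecules to the transporter. TAPBP was read by 208829_at at 9.95, 9.98 and 10.07 with ethanol at 24 h and at 10.33, 10.31 and 10.42 with dexamethasone. The groups did not overlap and the rise was 0.35 ± 0.08 (adjusted p = 0.00461), or 1.28-fold. The set 1555565_s_at rose by 0.32 ± 0.11 (adjusted p = 0.0295), a call lost without the ethanol array of experiment 2 or 3 (adjusted p = 0.0691 and 0.105) or the dexamethasone array of experiment 1 or 3 (0.0988 and 0.0752), with no filter on low values (0.0546) or with median centring (0.0818). Neither passed when scaled to the spikes, at 0.016 (adjusted p = 0.93) and -0.021 (adjusted p = 0.925), and the direction of the latter turned. The set 210294_at differed by -0.06 ± 0.07 (adjusted p = 0.547), so the probe sets of TAPBP did not all rise. On the spike scale this set fell (-0.39, adjusted p = 0.0394). At 6 h the difference of 208829_at was 0.07 ± 0.08 (adjusted p = 0.674).

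PSMB8 and PSMB9 are the immunoproteasome subunits that replace the housekeeping subunits PSMB5 and PSMB6, and their genes lie on either side of TAP1. PSMB8 was read at 10.42, 10.51 and 10.54 with ethanol at 24 h and at 10.61, 10.69 and 10.52 with dexamethasone. The groups overlapped, with a difference of 0.12 ± 0.13 (adjusted p = 0.5, 95% interval -0.17 to 0.41), or -0.22 on the spike scale (adjusted p = 0.189). PSMB9 was read at 10.45, 10.43 and 10.50 against 10.30, 10.43 and 10.35, and its treated arrays lay below its ethanol arrays, the nearest by less than 2 decimals show. Its difference was -0.10 ± 0.15 (adjusted p = 0.614, 95% interval -0.44 to 0.23), and on the spike scale it fell by 0.44 (adjusted p = 0.0258).

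TAP1 rose relative to the genes on both sides of it. Within each array log2 TAP1 minus log2 PSMB9 was 0.99 higher with dexamethasone at 24 h and log2 TAP1 minus log2 PSMB8 was 0.77 higher, both without overlap (exact two-sided permutation p = 0.1). At 6 h these changes were 0.10 and 0.23, and the groups overlapped (exact p = 0.6 and 0.3). The intervals above leave room for a rise of PSMB8 by up to 0.41 and of PSMB9 by up to 0.23, against a lower bound of 0.62 for TAP1. At 6 h both subunits had the arrays of experiment 1 as the highest in either group (10.58 and 10.47 in PSMB8, 10.59 and 10.67 in PSMB9), and differed by -0.08 ± 0.13 and 0.04 ± 0.15 (adjusted p = 0.787 and 0.919).

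ERAP1 cuts peptides to the length that fits the class I groove. Its set 209788_s_at was read at 11.22, 11.11 and 11.17 with ethanol at 24 h and at 11.42, 11.32 and 11.27 with dexamethasone, and 210385_s_at at 9.74, 9.69 and 9.67 against 9.92, 9.95 and 9.95. Neither pair of groups overlapped, and the differences of 0.17 ± 0.08 and 0.24 ± 0.09 did not pass (adjusted p = 0.115 and 0.056). Blocked by experiment both passed (adjusted p = 0.0472 and 0.0107). On the spike scale they were -0.17 and -0.10 and did not pass (adjusted p = 0.349 and 0.582), so no direction is given for ERAP1. The set 214012_at differed by 0.01 ± 0.10 (adjusted p = 0.969), and by -0.33 on the spike scale (0.106).

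NLRC5, which drives transcription of class I genes in lymphocytes, was not read above background on any of the 12 arrays. No direction is given for it.

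**Figure D3:**
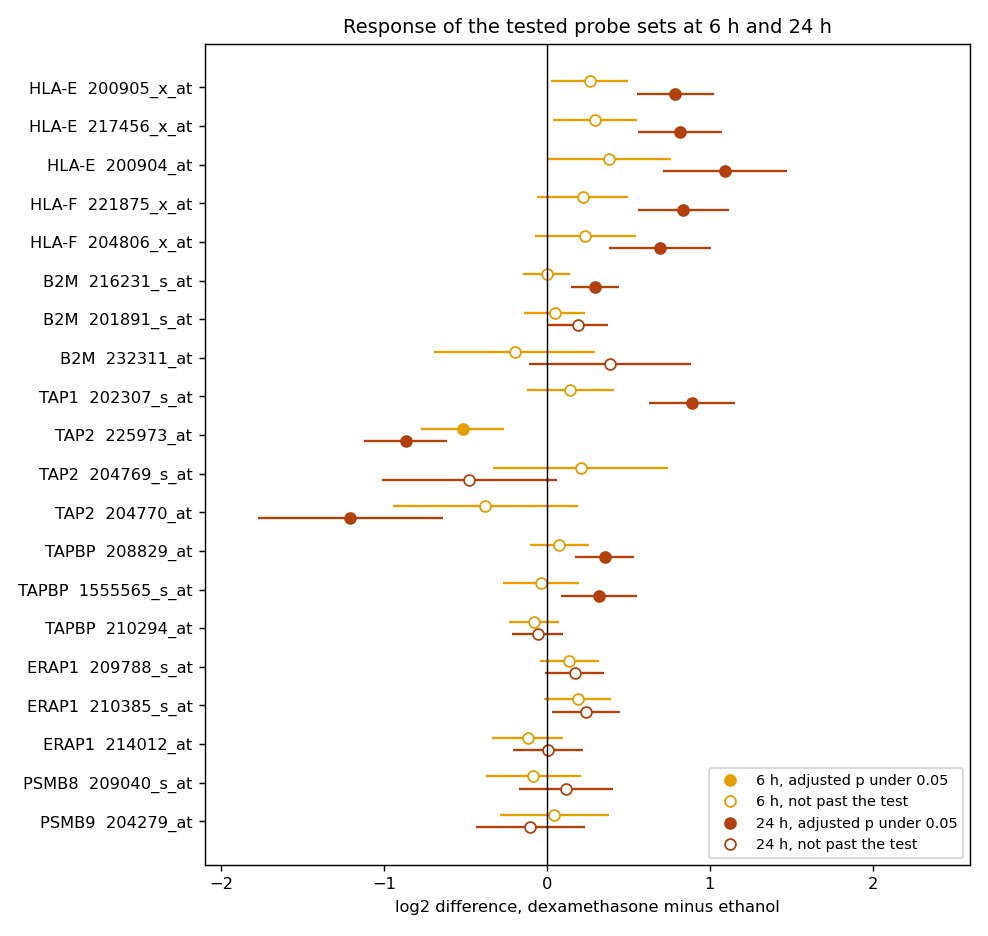
Log2 difference between treated and control arrays at each time for the 20 tested probe sets of 9 class I presentation genes. Points are limma estimates with 95% intervals, filled where the adjusted p is under 0.05. The filled points are 9 rises and 2 falls at 24 h and 1 fall, of TAP2, at 6 h.

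Across all these probe sets 12 of 20 had every dexamethasone array of 24 h above every ethanol array and 4 had it below, where 29.2% and 31.9% of all tested probe sets did. When blocked by experiment, 12 probe sets rose and 3 fell at 24 h, beside 27.8% and 28.7% of all. Scaled to the spikes 5 rose and 5 fell at 24 h (9.57% and 43.3% of all), the rises being those of HLA-E (3 probe sets), TAP1 and 221875_x_at of HLA-F. The share of rises among the calls therefore depends on the scale, and at 6 h 0 of the 20 rose and 11 fell on the spike scale (1.18% and 65% of all). As RNA was taken from whole cultures, a change in RNA per cell and a change in the make-up of the culture cannot be told apart.

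Whether a response differed between the times was tested as the difference of the 2 responses. It was positive for 5 of 20 probe sets and negative for 0, beside 11.4% and 11.7% of all probe sets. The rise of TAP1 was larger at 24 h than at 6 h by 0.75 ± 0.17 (adjusted p = 0.0101), and it passed whichever array was left out (highest adjusted p = 0.0265). The differences of HLA-E were 0.53 ± 0.15 in 200905_x_at and 0.52 ± 0.16 in 217456_x_at (adjusted p = 0.029 and 0.0425). Those of HLA-F and B2M were 0.62 ± 0.18 in 221875_x_at and 0.30 ± 0.09 in 216231_s_at (adjusted p = 0.0296 and 0.0431). The remaining tested sets of these genes did not pass. For HLA-E 200904_at it was 0.71 ± 0.24 (adjusted p = 0.0577) and for HLA-F 204806_x_at 0.46 ± 0.20 (0.129). For B2M it was 0.14 ± 0.12 in 201891_s_at and 0.58 ± 0.32 in 232311_at (adjusted p = 0.438 and 0.219).

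Apart from TAP1 the calls that passed lay near the threshold. Of the 12 fits that each left out 1 array, B2M lost its call in 12, 217456_x_at in 9, 200905_x_at in 7 and 221875_x_at in 6, with adjusted p up to 0.0939, 0.098, 0.0694 and 0.0631. Scaled to the spikes they ended too, in the same order, at 0.223, 0.122, 0.0817 and 0.0741. For TAP2 the fall by 225973_at was larger at 24 h by 0.35 ± 0.16, which did not pass (adjusted p = 0.155) but did when blocked by experiment (0.0257) or without the ethanol array of experiment 1 at 6 h (0.0322). Since the 6 h groups lie in batches of their own, the time and the batch cannot be told apart in these values. Between the ethanol groups of 24 h and 6 h 0 of the 20 probe sets passed in limma, beside 0.486% of all. An unadjusted p under 0.05 was found in 2, with no share of all probe sets counted at that threshold. Blocked by experiment 5 of 20 were positive and 2 negative in the difference of the responses (17.1% and 16.8% of all). In the blocked fit 1 of 20 was higher between the ethanol groups (2.44% of all). That value compares the fitted levels of experiment 1 at 24 h and experiment 0 at 6 h, so it is no result about the group means.

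The genes whose pattern over the 12 arrays was most like that of TAP2 (225973_at, the member with the smallest p at 24 h) were MAPK6, PCID2, NMD3, OXSR1 and ME2, with Pearson's r of 0.987, 0.984, 0.984, 0.975 and 0.974. All 5 were lower with dexamethasone at 24 h, by 0.92, 0.48, 0.81, 0.42 and 1.10. These arrays share the treatment groups, so the r describes the pattern only.

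Of 6 tested heavy chains outside the members, HLA-B (0.70 ± 0.16), HLA-C (0.58 ± 0.13), HLA-G (0.70 ± 0.13) and MR1 (1.02 ± 0.12) rose at 24 h and CD1D fell by 0.93 ± 0.14, with adjusted p of 0.0045, 0.0034, 0.00117, 6.07e-05 and 0.000347. These 4 rises and 1 fall stand beside 23.9% and 28.1% of all genes. MR1 shows vitamin B metabolites and CD1D shows lipids rather than peptides. When scaled to the spikes only MR1 (0.68, adjusted p = 0.000782) and CD1D (-1.27) kept their calls (9.57% and 43.3% of all probe sets rose and fell). All 11 probe sets of HLA-B, HLA-C and HLA-G are x_at sets that can share transcripts. They differed by 0.51 to 0.88 at 24 h, each past the test, and by 0.25 to 0.52 at 6 h, none past the test, though the HLA-C set with the highest mean (0.34) passed at 6 h when blocked by experiment (adjusted p = 0.0277). CD1D was already lower at 6 h, by 0.68 ± 0.14 (adjusted p = 0.0201), a call lost without the ethanol array of experiment 0 or the dexamethasone array of experiment 3 (adjusted p up to 0.0675).

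Of 6 loading partners 1 rose and 3 fell at 24 h, beside 23.9% and 28.1% of all genes. TAPBPL, another tapasin-like editor of peptides, rose by 0.53 ± 0.09 (adjusted p = 0.000792). Calreticulin (CALR), which holds class I molecules in the complex, fell by 0.70 ± 0.10 (adjusted p = 0.000148), calnexin (CANX) by 0.28 ± 0.07 (0.0093) and HSPA5 by 0.43 ± 0.13 (0.0168). The call of HSPA5 was lost without the ethanol array of experiment 3 or the dexamethasone array of experiment 1 (adjusted p up to 0.0618). On the spike scale 0 of the 6 rose and 5 fell (9.57% and 43.3% of all probe sets). At 6 h CALR was higher by 0.37 ± 0.10 (adjusted p = 0.0489), a call lost in 11 of the 12 fits with 1 array left out (up to 0.124) and on the spike scale (-0.10).

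Among 5 other peptide-trimming enzymes ERAP2, the partner of ERAP1 in the endoplasmic reticulum, rose by 0.69 ± 0.12 at 24 h (adjusted p = 0.000976). The cytosolic peptidases BLMH, THOP1 and TPP2 fell by 0.49 ± 0.08, 0.31 ± 0.08 and 0.26 ± 0.09 (adjusted p = 0.000314, 0.00606 and 0.0334). The call of TPP2 was lost without the ethanol array of experiment 1 or 2 or the dexamethasone array of experiment 1 or 3 (adjusted p up to 0.12). Of all genes 23.9% rose and 28.1% fell at 24 h. Scaled to the spikes 0 of the 5 rose and 3 fell (9.57% and 43.3% of all probe sets). At 6 h ERAP2 differed by 0.41 ± 0.12 (adjusted p = 0.0837), and passed when blocked by experiment (0.013).

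Of 7 proteasome genes 0 rose and 5 fell at 24 h, beside 23.9% and 28.1% of all genes. On the spike scale 7 fell, beside 43.3% of all probe sets. PSMB5, PSMB6 and PSMB7, the housekeeping subunits that immunoproteasome subunits displace, fell by 0.77 ± 0.09, 0.40 ± 0.08 and 0.41 ± 0.07 (adjusted p = 3.07e-05, 0.00223 and 0.00087). PSME3, a subunit of a nuclear activator of the proteasome, fell by 0.67 ± 0.08 (4.6e-05), and POMP, the assembly chaperone, by 0.21 ± 0.07 (0.0239, lost without the ethanol array of experiment 1 or 2 or the dexamethasone array of experiment 1, up to 0.0872). PSMB10, the third interferon-inducible subunit, differed by -0.12 ± 0.13 and PSME1 by -0.05 ± 0.09 (adjusted p = 0.49 and 0.665). At 6 h PSMB5 was lower by 0.34 ± 0.09 (adjusted p = 0.0439), a call lost in 11 of 12 fits with 1 array left out (up to 0.138).

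Of 10 tested factors that act on class I genes 1 rose and 3 fell at 24 h, beside 23.9% and 28.1% of all genes. IRF2, which shares the IRF1 motif, rose by 0.60 ± 0.10 (adjusted p = 0.000768), and IRF1, the interferon-induced activator, fell by 0.57 ± 0.12 (0.00209). The subunits NFYA and RFXAP of the complexes on class I and class II promoters fell by 0.50 ± 0.14 (0.0109) and 0.44 ± 0.11 (0.00613). Blocked by experiment 3 of the 10 rose and 3 fell, beside 27.8% and 28.7% of all probe sets. NFYB (0.29, adjusted p = 0.00537) and RFX5 (0.27, adjusted p = 0.0248) were the added rises. On the spike scale 0 of the 10 rose and 6 fell (9.57% and 43.3% of all probe sets). At 6 h 0 of the 10 passed in limma without the block, and with it NFYA was lower by 0.46 (adjusted p = 0.0209).

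In interferon gamma signalling 4 of 5 tested genes rose at 24 h and 1 fell, beside 23.9% and 28.1% of all genes. SOCS1, an inhibitor of JAK kinases that interferon induces, rose by 3.40 ± 0.20 at 6 h and by 4.60 ± 0.20 at 24 h (adjusted p = 3.43e-06 and 3.15e-08). The kinases JAK2 and JAK1 rose by 3.86 ± 0.25 and 2.09 ± 0.10 and the receptor chain IFNGR1 by 0.57 ± 0.11 at 24 h (adjusted p = 6.94e-07, 8.84e-08 and 0.00163). PTPN2, a phosphatase that acts on JAK1, fell by 0.79 ± 0.07 (7.03e-06). At 6 h JAK1 differed by 0.38 ± 0.10 (adjusted p = 0.0574), and passed when blocked by experiment (0.0336). On the spike scale 3 rose and 1 fell at 24 h (9.57% and 43.3% of all probe sets). In class II presentation 2 of 8 genes were tested, and HLA-DMA, a peptide editor of class II, rose by 1.12 ± 0.14 at 24 h (5.98e-05). The other, HLA-DMB, differed by 0.22 ± 0.15 and did not pass (adjusted p = 0.251), and on the spike scale by -0.12.

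**Figure D4:**
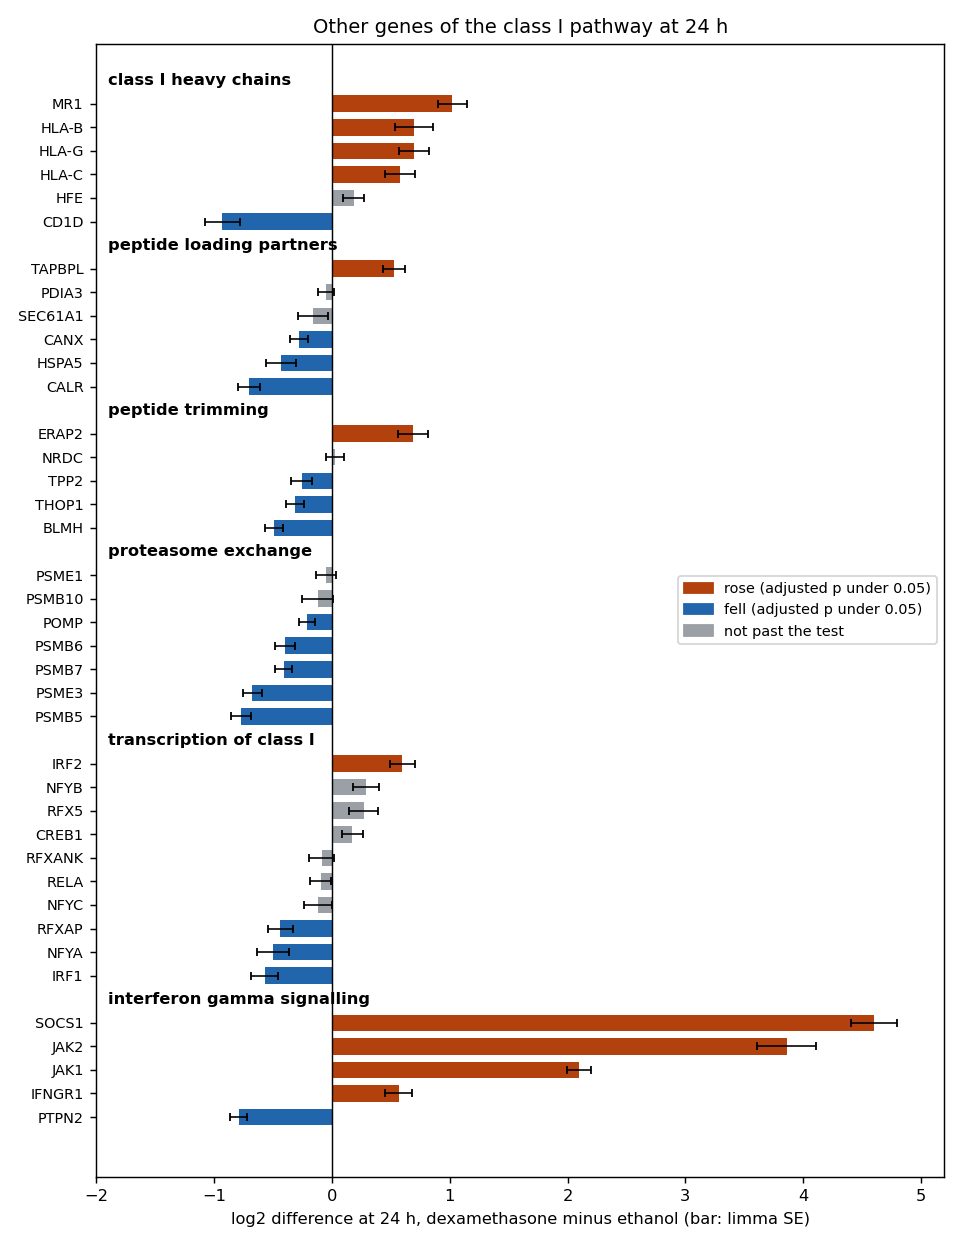
Log2 difference of dexamethasone minus ethanol at 24 h for the tested genes of 6 other lists of the class I pathway (bars, with limma standard errors from 12 arrays). Red bars rose, blue bars fell and grey bars did not pass an adjusted p of 0.05. No proteasome gene rose and 5 of 7 fell, while 4 of 6 heavy chains and 4 of 5 interferon gamma signalling genes rose. Of all tested genes 23.9% rose and 28.1% fell.

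Some markers of other cell types moved at 24 h beside these genes. KLRD1, which encodes the CD94 chain of the HLA-E receptors, was read at 2.01 to 2.04 on the other 9 arrays and at 5.78, 5.73 and 6.83 with dexamethasone at 24 h. Measured against the floor of 4 it was at least 4.32-fold higher there. NKG7 rose by 0.94 ± 0.14 (adjusted p = 0.000298) and the B cell gene CD79A by 1.55 ± 0.18 (5.07e-05). The other tested B cell marker, CD79B, differed by 0.25 ± 0.17 (adjusted p = 0.256, blocked by experiment 0.0391), and the tested stromal marker, COL1A1, by -0.34 ± 0.19 (adjusted p = 0.167, on the spike scale 0.0246). The summed level of the natural killer cell markers was 7.48 to 7.73 with ethanol and 8.68 to 8.84 with dexamethasone at 24 h, and that of the B cell markers 10.2 to 10.4 and 11.7 to 11.9. The summed T cell markers were 14.97 to 15.02 and 15.29 to 15.37, with 4 of 7 risen (CD3E, CD3D, CD7 and PTPRC) and CD5 and LCK fallen. Of all genes 23.9% rose and 28.1% fell. Scaled to the spikes 0 of these 7 T cell markers rose and 2 fell (9.57% and 43.3% of all probe sets). CD5 lost its call in 9 of 12 fits with 1 array left out (adjusted p up to 0.151) and when blocked by experiment (0.0514), and LCK without the ethanol array of experiment 3 or the dexamethasone array of experiment 1 at 24 h (up to 0.0611). The listed markers NCAM1, GNLY, PAX5 and MS4A1 and all myeloid markers were below 4 on all arrays. The part of any other cell in the class I values was not tested.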

How the data were processed

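RNA of 12 cultures was read on 1 array each. The deposited values are log2 expression per probe set, which per the submitters' processing notes the authors made with GCRMA under R 2.6. That method corrects the background by probe sequence. How it was set, and over which arrays it was run, is not given in the sources used here. Probe sets were named by the platform's annotation, of which 41097 carried 1 symbol, 1801 several and 11777 none, and those with 1 symbol were matched to the GRCh38.p14 RefSeq gene table. No test included the 62 controls.

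Group means over all 12 arrays were estimated by limma 3.58.1 (R 4.3.3, 8 residual degrees of freedom), after a test on simulated data, and p values were adjusted over 23265 tested probe sets. They describe the spread between repeated experiments in 1 cell line, and 3 arrays per group limit their precision. The probe set with the highest mean stood for its gene. The members, the pathway lists and the marker lists were chosen with earlier results of these data known. Of each pathway list, genes were named that passed at 24 h, up to 4 in each direction by p, or at 6 h. HLA-DMB, NFYB, POMP, PSMB10, PSME1 and RFX5 fall outside that rule and were named after their values were seen. The same experiment numbers paired the arrays: after group means were taken off, arrays of 1 number correlated at r of 0.417 to 0.627 at 6 h and 0.238 to 0.424 at 24 h, against at most 0.05 for other pairs, as the labels number independent experiments. Taking off the mean of 3 arrays by itself lowers the r of other pairs where that of same-number pairs is high. The main fit and the exact tests did not use this pairing. Alternatives were a replicate block (experiment within each time), a filter at 6 or none, median centring, poly-A spike scaling, cyclic loess, a variance trend, only the arrays compared, and each array left out.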

Additional observations from a re-analysis of the deposited data

Results flagged for a closer look

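The response differed between the times, by a limma test of the difference itself (log2, response at 24 h minus response at 6 h), in 5 probe sets. TAP1 (202307_s_at) differed by 0.75 (adjusted p = 0.0101), HLA-F (221875_x_at) by 0.62 (0.0296), HLA-E by 0.53 (200905_x_at, 0.029) and 0.52 (217456_x_at, 0.0425), and B2M (216231_s_at) by 0.30 (0.0431). The remaining tested probe sets of HLA-F, HLA-E and B2M did not pass. The 6 h groups were in batches of their own, so the time and the batch cannot be told apart.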

How the results depend on the processing

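The sign of every member difference held in each fit that left out 1 array where the value had been called. Over all member values of these fits, most of them not called with all arrays, 911 kept their side of the threshold and 8 calls were gained. The 41 calls lost were all among those of 1 probe set at 6 h, 11 at 24 h and 5 in the difference between responses. Leaving out 1 array gave 399 to 613 rises and 411 to 805 falls over all probe sets at 6 h (619 and 824 with all arrays), and 0 to 1 member falls. It gave 0 to 191 rises and 0 to 76 falls between the ethanol groups (66 and 47), and 1 to 5 positive and 0 to 1 negative members in the difference between responses.

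With the experiment as a replicate block 1293 probe sets rose and 1746 fell at 6 h. In the difference between responses 2 members were negative. Between the ethanol groups 568 rose and 328 fell, with 1 member among the rises (TAP2 204769_s_at, 0.80, adjusted p = 0.0411). These blocked ethanol values compare the fitted levels of experiment 1 at 24 h and experiment 0 at 6 h, not the group means. They are therefore no result about the ethanol groups. Without the block the group means of this TAP2 set differed by 0.56 (limma, adjusted p = 0.303). The block lost the difference between responses of HLA-E 217456_x_at (adjusted p = 0.0769) and added that of HLA-F 204806_x_at (0.0409) and TAP2 204769_s_at (0.0134). Beyond these and the block values given with the results it changed no other call of a member.

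On the poly-A spike scale 275 probe sets rose and 15132 fell at 6 h, with 11 members among the falls, and 2227 rose and 10064 fell at 24 h, with 5 members each way. In the difference between responses 2 members were positive and 1017 probe sets negative, and between the ethanol groups 11 rose and 26 fell. It reversed TAPBP 208829_at (-0.39), B2M 201891_s_at (-0.42) and PSMB9 (-0.42) at 6 h, and TAPBP 1555565_s_at (-0.021) and B2M 216231_s_at (-0.044) at 24 h. It lowers every treated-minus-control difference by 0.47 at 6 h and by 0.34 at 24 h, and raises the difference between responses accordingly.

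With no filter 0 members fell at 6 h and 2 were positive in the difference between responses, as with median centring (2). A filter at 6 left 1 member fall at 24 h, since 204770_at was not tested, and 105 rises and 85 falls between the ethanol groups. The variance trend gave 141 and 128 there. Fits of only the arrays compared gave 286 rises and 204 falls at 6 h with 0 members, and 3 and 1 between the ethanol groups. The causes were not tested beyond those named.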
